A study of Mus musculus with 12 samples.

Results

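The genes described here encode complement components and regulators: C1qa, C1qb, C1qc, C4a, C4b, C2, C3, Cfb and Cfi. They are 9 of the 24421 gene symbols in the deposited tables and were listed by symbol, with the transcript of the highest total count standing for each symbol. Apart from this choice of transcript the rule uses no measured value, but the list was drawn up with earlier results of these data known. RNA-seq was done on whole kidneys of 12 male C57BL/6 mice labelled as 6 weeks old, in 4 groups of 3. The groups were WT and Tet2-/- mice as healthy controls (baseline), which had no operation, and WT and Tet2-/- mice with ischemia-reperfusion injury (IR), in which the right renal pedicle was clamped and released, the left kidney was removed and tissue was taken on the following day. The Tet2-/- mice are knockouts of Tet2, a methylcytosine dioxygenase, in the whole body and not in the kidney alone. No sham-operated library was analysed here, so the effects of ischemia, of surgery and of removing a kidney cannot be told apart.

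Complement is a cascade of plasma and tissue proteins that marks cells and debris for removal and can lyse membranes. The classical pathway starts when C1q binds antibody or damaged cells and its proteases cleave C4 and C2, whereas the alternative pathway is amplified by factor B on deposited C3b, and both converge on the cleavage of C3. Factor I degrades C3b and C4b and so limits the cascade. The liver makes most circulating complement, macrophages make much of the C1q, and the tubular epithelium of the kidney is known to produce C3 and factor B itself, which is why the local transcripts are of interest after renal ischemia.

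Levels are given as FPKM, fragments scaled to transcript length and library depth, which allows genes to be compared within a library. Differences are log2 fold changes fitted by edgeR to the counts, with their standard error (SE). Calls required an adjusted p under 0.05 from edgeR's quasi-likelihood test together with an absolute log2 fold change over 1, and the difference between the IR effects of the genotypes, the interaction, was called at an adjusted p under 0.05 alone. The study gives its numbers of mice by group, and the labels do not tie each library to a mouse. The p-values measure the spread between these libraries, which hold 51007366 to 107969888 counts each. With 3 libraries against 3, an exact two-sided permutation test of a single gene cannot go below p = 0.1 and was not used.

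Tet2 itself checks the labels. Its FPKM was 9.15, 6.25 and 7.33 in the WT baseline libraries and 9.24, 16.6 and 10.3 in the baseline libraries labelled Tet2-/-, so it was not lower there (log2 fold change 0.76, adjusted p = 0.321 by edgeR). After IR it was 9.34, 3.97 and 3.85 in the WT libraries and 2.64, 3.20 and 1.76 in those labelled Tet2-/-, without overlap but not called (log2 fold change -1.28, adjusted p = 0.0690 by edgeR). It was called lower by DESeq2 (-1.29, adjusted p = 0.00610) and by edgeR when the 12 libraries were fitted together (-1.27, adjusted p = 0.0252). The part of the gene deleted in these mice is not given in the sources used here, so the groups are called libraries labelled Tet2-/- throughout. The adipocyte marker Adipoq set 3 libraries apart: it was 3.01 and 15.6 FPKM in WT baseline replicates 2 and 3 and 10.01 FPKM in IR replicate 3 labelled Tet2-/-, and at most 0.273 FPKM in the other 9. Plin1, Retn and Cfd were also highest in these 3, but Cidec, Plin4, Fabp4 and Lep did not separate them. Cidec was 7.29 FPKM in IR replicate 1 labelled Tet2-/- and 2.90 FPKM in WT baseline replicate 2. These 3 are the libraries with adipocyte markers below. The kidney itself was well marked in every library, with summed FPKM of 9 proximal tubule markers from 940.6 to 5504.

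The genes lie on 3 chromosomes of the mm9 genome. C1qb (NM_009777), C1qc (NM_007574) and C1qa (NM_007572) lie side by side on the minus strand of chromosome 4, from 136436061 to 136454759, a span of 18699 bases with gaps of 3624 and 3001 bases between them. On the minus strand of chromosome 17 lie C4b (NM_009780, 34865326 to 34880842), C4a (NM_011413, 34946037 to 34960399), Cfb (NM_001142706, 34993319 to 34999459) and C2 (NM_013484, 34999547 to 35019045), 4 complement genes in 153720 bases of the major histocompatibility complex. C3 (NM_009778, 57343390 to 57367559) is on the same chromosome and strand, and Cfi (NM_007686, 129539657 to 129578246) is on the plus strand of chromosome 3.

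C2 ends 87 bases upstream of the start of Cfb, so the proximal upstream sequence of Cfb is the whole interval between the genes. This interval and the 250 bases upstream of C3 are shown because both genes were called for IR, Cfb only in the libraries labelled Tet2-/-. The 250 bases upstream of C4a and C4b are shown because these near-identical copies differed in their pattern. All are read from the reference genome NCBIM37 (mm9), minus strand, 5′ to 3′, ending at the base before the start in the tables, and capitals mark a motif match.
Cfb, chr17:34999460-34999546: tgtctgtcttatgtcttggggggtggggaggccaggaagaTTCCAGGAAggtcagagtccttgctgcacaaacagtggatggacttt
C3, chr17:57367560-57367809: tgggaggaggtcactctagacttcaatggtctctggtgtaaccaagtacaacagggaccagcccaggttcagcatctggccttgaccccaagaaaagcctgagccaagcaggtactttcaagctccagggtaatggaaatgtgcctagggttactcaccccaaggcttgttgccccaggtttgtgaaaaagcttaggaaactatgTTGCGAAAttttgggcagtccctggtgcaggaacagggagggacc
C4a, chr17:34960400-34960649: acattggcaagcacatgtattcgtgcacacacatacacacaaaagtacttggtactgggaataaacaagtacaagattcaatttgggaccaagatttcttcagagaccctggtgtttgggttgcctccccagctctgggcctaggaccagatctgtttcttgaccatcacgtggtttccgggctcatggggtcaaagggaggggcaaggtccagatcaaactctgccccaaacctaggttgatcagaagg
C4b, chr17:34880843-34881092: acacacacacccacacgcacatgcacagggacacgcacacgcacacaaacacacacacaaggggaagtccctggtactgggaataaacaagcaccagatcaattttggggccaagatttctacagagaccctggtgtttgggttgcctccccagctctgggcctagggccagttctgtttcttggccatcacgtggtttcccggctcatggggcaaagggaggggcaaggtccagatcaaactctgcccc

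Letters of 2 motifs of inflammatory transcription factors were searched on both strands in these windows and in those of the other members, with N standing for any base: TTCNNNGAA for STAT and TTGCNNAA for C/EBP. The Cfb interval held a STAT match that begins 47 bases before the start, which 2.08% of all 24351 windows of 87 bases hold. The C3 window held a C/EBP match that begins 45 bases before the start, against 8.78% of all windows of 250 bases, and the C1qa window held a STAT match that begins 27 bases before it, against 6.86%. The windows of C1qb, C1qc, C2, C4a, C4b and Cfi held neither. A match describes letters and not binding, which was not measured.

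Of the 9 genes, C3 was the one that rose after IR, and it did so in both genotypes. The libraries labelled Tet2-/- ended with less C3, Cfb and C4a after IR than the WT libraries, whereas the C1q subunits, C2, C4b and Cfi were called in no comparison. In a whole kidney, fewer cells of a type and less RNA per cell cannot be told apart. In WT kidneys 1 member was called higher after IR and 0 lower, where 1.46% and 0.887% of 16015 genes tested were called higher and lower. In kidneys labelled Tet2-/- 1 member was called higher (C3) and 2 lower (C4a and Cfb), against 12.7% and 11.6% of 16359 genes. Between genotypes 0 members were called at baseline in either direction, against 0.0124% higher and 0% lower of 16086 genes. After IR 3 members were called lower in the libraries labelled Tet2-/- and 0 higher, against 3.85% and 2.3% of 16186 genes. For the interaction 0 members were called, against 3.79% of 16741 genes with a larger and 5.39% with a smaller log2 change in the libraries labelled Tet2-/-.

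In FPKM, 1 member (C3) did not overlap between the WT groups, all IR values being higher, and 0 members had all IR values lower, against 18.9% and 10.4% of genes tested. In the libraries labelled Tet2-/- 1 was higher (C3) and 2 lower (C4a and Cfb) after IR without overlap, against 40.5% and 17.9%. Between genotypes at baseline 0 were higher and 2 lower (C4a and C4b) in the libraries labelled Tet2-/-, against 3.06% and 16.5%. After IR 0 were higher and 3 lower (C3, C4a and Cfb), against 22% and 14.6%.

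**Figure D1:**
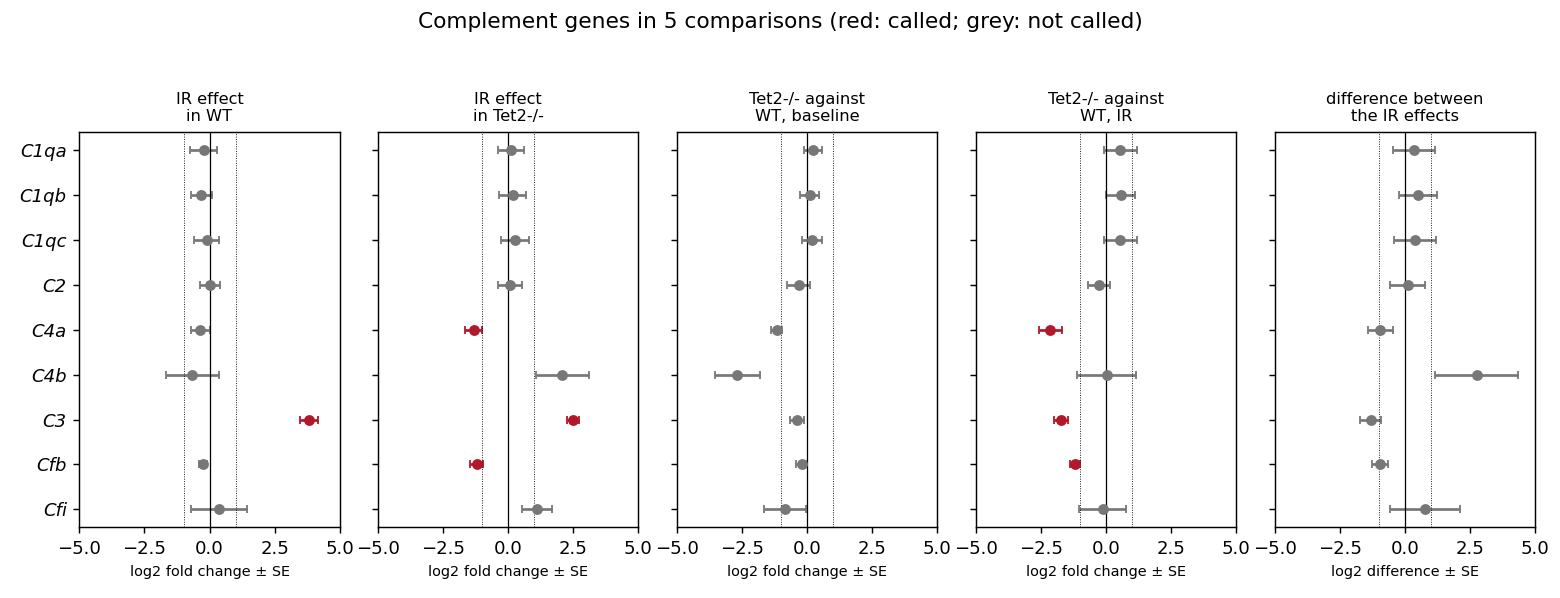
The log2 fold change of each of the 9 complement genes (points, with bars of 1 SE) is plotted for the IR effect in WT kidneys and in those labelled Tet2-/-, for the genotype difference at baseline and after IR, and for the difference between both IR effects. Red points passed the thresholds: C3 in both IR effects, C4a and Cfb in the IR effect labelled Tet2-/-, and C3, C4a and Cfb between genotypes after IR.

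The median log2 fold change of the members was -0.23 for IR in WT kidneys, where that of all genes tested was -0.03, and 0.17 for IR in kidneys labelled Tet2-/-, where all genes gave 0.04. Between genotypes it was -0.33 at baseline and -0.12 after IR, with 0.00 and 0.04 over all genes. For the interaction it was 0.36 against 0.10. At an unadjusted p under 0.05 in edgeR's test, 1 member passed for IR in WT, 3 for IR in kidneys labelled Tet2-/-, 2 at baseline, 3 after IR and 2 for the interaction, where 22.7%, 51.8%, 11.8%, 28.9% and 27.2% of all genes tested did. Library sizes alone in place of TMM normalization moved the median of all genes to 0.27 for IR in kidneys labelled Tet2-/-, where the calls over all genes went from 2078 higher and 1896 lower to 2860 and 1397, to 0.14 between genotypes after IR, and to 0.24 for the interaction, where they went from 634 and 902 to 1129 and 700. With the replicate number as a block, the calls for IR in WT over all genes went from 234 higher and 142 lower to 428 and 559, and those for the interaction to 1024 and 1077.

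**Figure D2:**
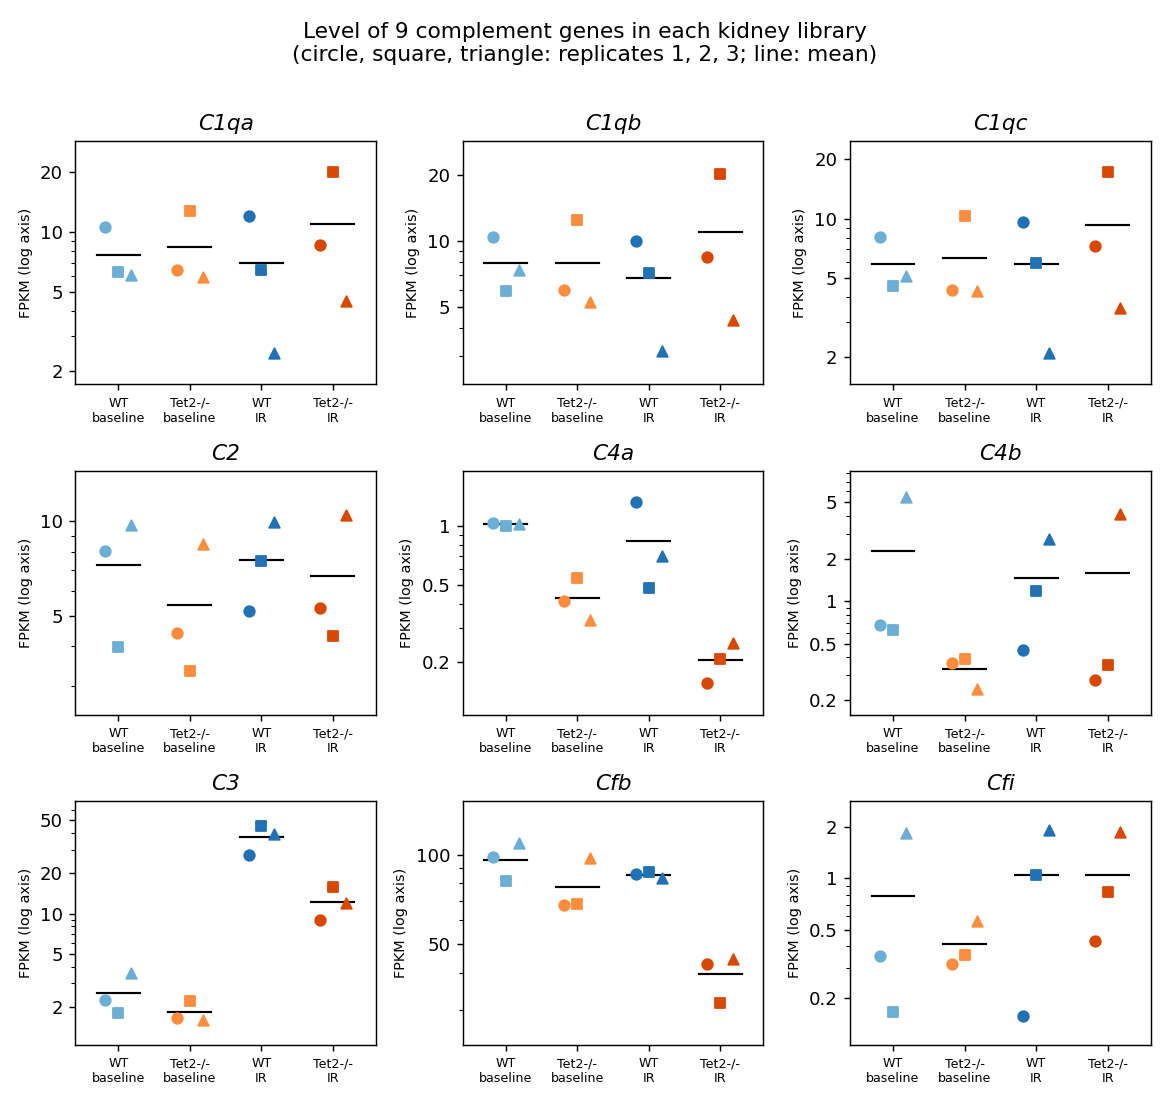
FPKM of each of the 9 complement genes on a log axis is plotted for the 12 kidney libraries, with replicates 1, 2 and 3 as circle, square and triangle and the group mean as a line. Cfb was at least 31.6 FPKM in every library, C3 separated the IR from the baseline libraries, and the C1q subunits shared 1 pattern over the libraries.

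Cfb was by far the most abundant member in FPKM in all 4 groups, with means from 39.7 in the IR libraries labelled Tet2-/- to 96.3 in the WT baseline libraries. At WT baseline the C1q subunits and C2 followed with mean FPKM of 7.90 ± 2.29 for C1qb, 7.70 ± 2.57 for C1qa, 7.25 ± 2.94 for C2 and 5.92 ± 1.89 for C1qc (SD, n = 3), which did not differ beyond their spread. C3, C4b, C4a and Cfi were lower, at 2.53 ± 0.915, 2.26 ± 2.79, 1.03 ± 0.0151 and 0.788 ± 0.922 FPKM (SD, n = 3), and the mean of C4b stood above that of C4a only through replicate 3. After IR C3 moved to the second place, behind Cfb, in WT libraries and in those labelled Tet2-/-, although in the latter its 12.2 ± 3.40 FPKM (SD, n = 3) was within the spread of C1qa at 11.05 ± 8.04 (SD, n = 3). C4a had the lowest mean FPKM in both IR groups, in the WT libraries within the spread of Cfi (0.841 ± 0.443 against 1.04 ± 0.881, SD, n = 3).

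C3 encodes the component on which all pathways converge. Its FPKM was 2.25, 1.78 and 3.54 in the WT baseline libraries and 27.5, 45.4 and 39.6 in the WT IR libraries. All 3 IR values were above all baseline values, and the mean rose from 2.53 to 37.5 FPKM, a 14.9-fold ratio of means. The log2 fold change was 3.83 ± 0.34 (SE, adjusted p = 0.00767 by edgeR). Without WT baseline replicates 2 and 3, which held the adipocyte markers, the log2 fold change was 3.99 and the adjusted p by edgeR 0.223, with the lone baseline library assumed to vary like the IR libraries and 0 of 16526 genes called higher.

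In the libraries labelled Tet2-/- C3 was 1.65, 2.19 and 1.59 FPKM at baseline and 8.99, 15.8 and 11.9 FPKM after IR. These groups did not overlap either, with a 6.76-fold ratio of means and a log2 fold change of 2.49 ± 0.22 (SE, adjusted p = 0.000246 by edgeR). Every IR value labelled Tet2-/- was below every WT IR value, and the log2 fold change between genotypes after IR was -1.73 ± 0.26 (SE, adjusted p = 0.0155 by edgeR), with a mean of 12.2 ± 3.40 against 37.5 ± 9.11 FPKM (SD, n = 3). At baseline the genotypes overlapped in C3 (log2 fold change -0.39 ± 0.27 SE, adjusted p = 0.562 by edgeR). The call after IR held in all 17 alternatives run, with log2 fold changes from -1.92 to -1.54.

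The test of the difference between both IR effects did not pass for C3: the interaction was -1.30 ± 0.40 (SE, adjusted p = 0.0637 by edgeR). With the replicate number as a block it was -1.34 ± 0.31 (SE, adjusted p = 0.0284 by edgeR), and without WT baseline replicate 3 it was -1.65 (adjusted p = 0.0281 by edgeR). A smaller rise in the libraries labelled Tet2-/- was thus called under these settings and not under the main one.

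Cfb encodes factor B, the protease subunit of the alternative pathway C3 convertase. Its FPKM was 98.0, 81.5 and 109.5 in the WT baseline libraries and 86.3, 87.2 and 83.2 in the WT IR libraries, which overlapped (log2 fold change -0.24 ± 0.15 SE, adjusted p = 0.405 by edgeR). In the libraries labelled Tet2-/- it was 67.7, 68.4 and 97.7 FPKM at baseline and 42.9, 31.6 and 44.7 FPKM after IR, with no overlap. Cfb therefore fell after IR in these kidneys, with a log2 fold change of -1.22 ± 0.24 (SE, adjusted p = 0.00573 by edgeR). With library sizes alone the log2 fold change was -0.9996, which just misses the threshold on its size.

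After IR all 3 Cfb values labelled Tet2-/- were below all 3 WT values, with means of 39.7 ± 7.07 and 85.6 ± 2.09 FPKM (SD, n = 3). The log2 fold change between genotypes was -1.19 ± 0.20 (SE, adjusted p = 0.0192 by edgeR), and at baseline -0.21 ± 0.20 (SE, adjusted p = 0.653 by edgeR), with overlapping groups. The adjusted p after IR was 0.0659 without WT IR replicate 1, 0.0651 without WT IR replicate 3 and 0.0580 without IR replicate 1 labelled Tet2-/- in edgeR's test, so the call ended with each of these libraries. The interaction of Cfb was -0.94 ± 0.30 (SE, adjusted p = 0.0701 by edgeR), and with the replicate number as a block -0.96 ± 0.23 (SE, adjusted p = 0.0322 by edgeR). C3 and Cfb thus moved apart after IR: the ratio of C3 to Cfb in FPKM was 0.0163 to 0.0324 over the 6 baseline libraries and 0.210 to 0.521 over the 6 IR libraries.

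C4a and C4b encode the mouse homologues of C4, the component cleaved by the C1 and lectin proteases, with C4a also known as the sex-limited protein gene. The levels of both were low, and their spliced transcripts of 5371 and 5379 bases, each of 41 exons, were identical at 5161 of 5378 aligned positions (95.97%). Of all 100-base windows of the C4b transcript 16.5% also occur unchanged in C4a, and of all 50-base windows 35.2%, so reads from these stretches could be counted for either gene. The upstream sequences printed above aligned over 209 bases with an identity of 90.91%.

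C4a was 1.04, 1.01 and 1.03 FPKM in the WT baseline libraries and 0.414, 0.545 and 0.330 FPKM in those labelled Tet2-/- at baseline. These groups did not overlap, but C4a was not called (log2 fold change -1.16 ± 0.22 SE, adjusted p = 0.206 by edgeR). DESeq2 gave -1.16 with an adjusted p of 0.000117. After IR C4a was 1.34, 0.482 and 0.706 FPKM in WT libraries and 0.155, 0.207 and 0.249 FPKM in those labelled Tet2-/-, again without overlap.

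The log2 fold change of C4a between genotypes after IR was -2.13 ± 0.44 (SE, adjusted p = 0.0320 by edgeR). This call ended without WT IR replicate 1 (adjusted p = 0.0942), WT IR replicate 3 (0.0750), or IR replicate 1, 2 or 3 labelled Tet2-/- (0.0989, 0.0835 and 0.0554, all by edgeR). It also ended by limma on log2(FPKM + 1), at -0.59 with an adjusted p of 0.0706, and C4a was not tested at a mean of at least 1 FPKM. C4a fell by 1.32 ± 0.33 on the log2 scale after IR in the libraries labelled Tet2-/- (SE, adjusted p = 0.0142 by edgeR), and without baseline replicate 2 labelled Tet2-/- the adjusted p was 0.0624. By limma this IR effect was -0.25 on log2(FPKM + 1) and -0.79 on log2(FPKM + 0.1), short of the threshold on size (adjusted p = 0.0289 and 0.0303). In WT libraries the IR and baseline values overlapped (log2 fold change -0.35 ± 0.36 SE, adjusted p = 0.591 by edgeR), and the interaction was -0.93 ± 0.49 (SE, adjusted p = 0.242 by edgeR).

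C4b differed from C4a in that its level depended on single libraries. It was 0.677, 0.621 and 5.48 FPKM in the WT baseline libraries, 0.367, 0.391 and 0.240 FPKM in those labelled Tet2-/- at baseline, 0.448, 1.18 and 2.77 FPKM in WT IR libraries and 0.275, 0.356 and 4.13 FPKM in IR libraries labelled Tet2-/-. Replicate 3 was the highest in 3 of the 4 groups, and the ratio of C4b to C4a in FPKM ran from 0.335 to 16.6 over the 12 libraries. None of its comparisons passed: the log2 fold change between genotypes was -2.68 ± 0.86 at baseline (SE, adjusted p = 0.320 by edgeR) and 0.03 ± 1.14 after IR (SE, adjusted p = 0.989 by edgeR). Without WT baseline replicate 3 and without IR replicate 3 labelled Tet2-/- these values ended at -0.87 and -2.42. The 2 highest C4b levels were in libraries with high adipocyte markers, while WT IR replicate 3, the next highest, had Adipoq at 0 FPKM; the part of fat tissue was not tested.

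C2, which joins C4b in the classical pathway C3 convertase, was 8.05, 3.99 and 9.71 FPKM in the WT baseline libraries and 5.19, 7.49 and 9.92 FPKM in the WT IR libraries. In those labelled Tet2-/- it was 4.40, 3.34 and 8.45 FPKM at baseline and 5.30, 4.33 and 10.5 FPKM after IR. Replicate 3 was the highest in all 4 groups and the groups overlapped in every comparison, with log2 fold changes from -0.33 to 0.12, an SE of at most 0.67, and adjusted p of at least 0.728 by edgeR. C2 and Cfb lie 87 bases apart, yet C2 was not lower in the group in which Cfb fell: their log2 fold changes in the libraries labelled Tet2-/- after IR were 0.08 ± 0.46 and -1.22 ± 0.24 (SE).

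Cfi encodes factor I, the protease that inactivates C3b and C4b. Its FPKM was 0.352, 0.165 and 1.85 in the WT baseline libraries, 0.315, 0.355 and 0.563 in those labelled Tet2-/- at baseline, 0.157, 1.05 and 1.92 in the WT IR libraries and 0.432, 0.834 and 1.86 in the IR libraries labelled Tet2-/-. Replicate 3 again held the highest value of each group, and all groups overlapped. The largest of its 5 log2 differences was 1.11 ± 0.57 for IR in the libraries labelled Tet2-/- (SE, adjusted p = 0.154 by edgeR). Of the 9 proximal tubule markers, 2 (Slc5a2 and Slc5a12, named after their values were seen) were also highest in replicate 3 of every group and 7 were not.

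C1qa, C1qb and C1qc encode the 3 chains that assemble into C1q, the recognition molecule of the classical pathway. C1qa was 10.7, 6.32 and 6.11 FPKM in the WT baseline libraries, 6.45, 12.7 and 5.91 FPKM in those labelled Tet2-/- at baseline, 12.1, 6.44 and 2.46 FPKM in the WT IR libraries and 8.65, 20.0 and 4.48 FPKM in the IR libraries labelled Tet2-/-. Each IR group held values on both sides of the baseline ones, and all groups overlapped. The other subunits went with it: over the 12 libraries the ratio in FPKM of C1qb to C1qa ran from 0.827 to 1.28 and that of C1qc to C1qa from 0.677 to 0.925. C1qb ran from 3.17 to 20.1 FPKM and C1qc from 2.09 to 17.2 FPKM.

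None of the subunits was called in any comparison. Between genotypes after IR their log2 fold changes were 0.55 ± 0.63 for C1qa, 0.58 ± 0.56 for C1qb and 0.56 ± 0.63 for C1qc (SE, adjusted p from 0.532 to 0.603 by edgeR). For IR in WT libraries they were -0.23 ± 0.51, -0.31 ± 0.39 and -0.11 ± 0.49, and for IR in those labelled Tet2-/- 0.10 ± 0.50, 0.17 ± 0.53 and 0.26 ± 0.55, in the same order and again with the SE. With SE of 0.56 to 0.63 after IR, a log2 difference of 1 between genotypes could not have been told from no difference.

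**Figure D3:**
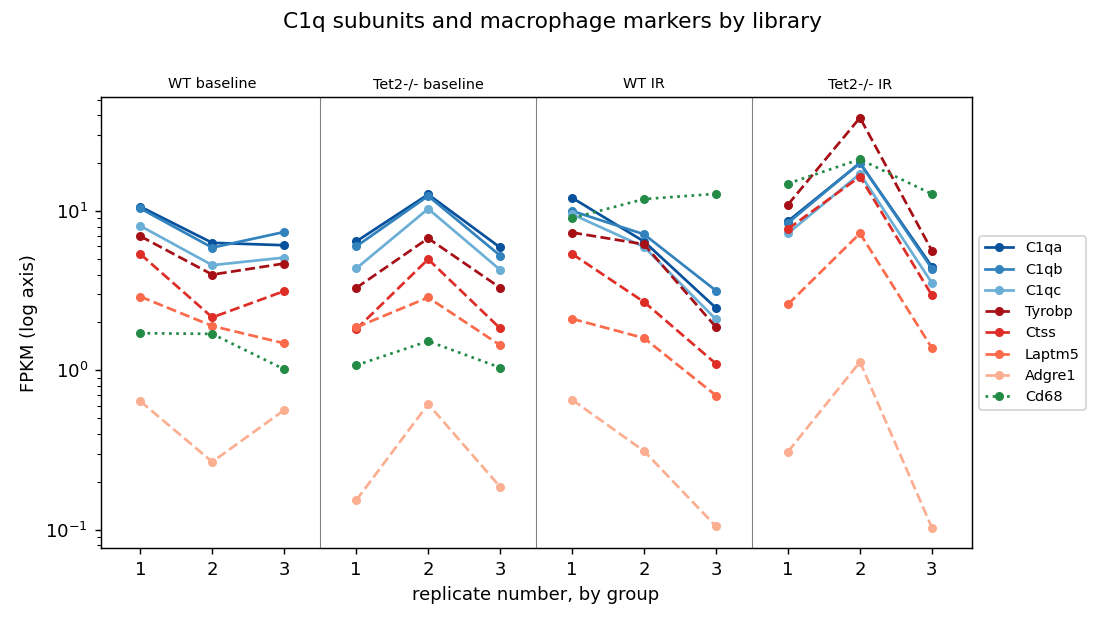
FPKM on a log axis is plotted for the 12 libraries, by group and replicate number, for the C1q subunits (solid), for 4 of the 15 macrophage markers, Tyrobp, Ctss, Laptm5 and Adgre1 (dashed), and for Cd68 (dotted). The subunits and the dashed markers were highest in replicate 2 and low in replicate 3 of the IR libraries labelled Tet2-/-, while Cd68 was at least 9.04 FPKM in all IR libraries and at most 1.71 FPKM in all baseline libraries.

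Of 15 markers of macrophages and dendritic cells, 13 were highest over all libraries in IR replicate 2 labelled Tet2-/-, as were the 3 C1q subunits, and 2 (Cx3cr1 and Mertk) in WT IR replicate 1. Tyrobp, a signalling adaptor of myeloid cells, was 10.99, 38.6 and 5.65 FPKM in the IR libraries labelled Tet2-/- and 7.34, 6.19 and 1.87 FPKM in the WT IR libraries. Between genotypes after IR Cx3cr1 and Mertk had log2 fold changes of -0.92 and -0.76 (adjusted p = 0.647 and 0.0484 by edgeR, neither past both thresholds), below 0 where those of the subunits were above it, and Mrc1 and Cd163 were higher in replicate 3 than in replicate 1 of the IR libraries labelled Tet2-/-, unlike C1q. The summed FPKM of the 15 markers ran from 28.8 to 48.5 in the WT baseline libraries, from 23.6 to 52.4 in those labelled Tet2-/- at baseline, from 30.6 to 58.6 in the WT IR libraries and from 38.0 to 237.3 in the IR libraries labelled Tet2-/-, and none of the 15 was at 0 in any library. Of these markers 1 (Cd68) was called, higher after IR in both genotypes, where 1.46% of all genes in WT and 12.7% in those labelled Tet2-/- were. Between genotypes 0 were called at baseline, where 0.0124% of all genes were higher and 0% lower. After IR 0 were called between genotypes, against 2.3% and 3.85%. Cd68, a lysosomal protein, was 9.04 to 12.8 FPKM in the WT IR libraries without a parallel rise of C1q, and the part of macrophage number in the C1q levels was not tested.

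Genes of the same pathway were taken from lists of known complement components, 52 in the tables beside the 9 members. In WT kidneys 42 passed the filter on low counts, and 1 was called higher after IR and 0 lower, where 1.46% and 0.887% of all genes were, with a median log2 fold change of -0.30 (all genes -0.03) and 12 at an unadjusted p under 0.05 in edgeR's test, against 22.7% of all genes tested. The gene that rose was Clu, which encodes clusterin, an inhibitor of the terminal complex, from 45.4, 41.9 and 63.0 to 168, 358 and 203 FPKM (log2 fold change 2.21 ± 0.32 SE, adjusted p = 0.0210 by edgeR). Its adjusted p was 0.0951, 0.0674 and 0.0549 without WT baseline replicates 1, 2 and 3 and 0.0522 without WT IR replicate 3. With the replicate number as a block 6 of these genes were called lower, where the calls lower over all 16015 genes went from 142 to 559.

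In kidneys labelled Tet2-/- 8 of 42 tested were called higher and 12 lower after IR, where 12.7% and 11.6% of all genes were, with a median log2 fold change of -0.39 (all genes 0.04). The counts by role that follow stand beside these shares, and no test of them against the shares was run. Of the genes that start the classical and lectin pathways, 2 of 11 rose and 5 fell, among them C1rl, a C1r-like protease, with -2.10 ± 0.18 and Mbl1, a mannose-binding lectin, with -1.93 ± 0.37. Of the terminal pathway 2 of 5 fell and 0 rose: C8a and C8g, chains of the C8 component of the membrane attack complex, with -5.29 ± 0.52 and -2.72 ± 0.23. Soluble regulators gave 2 higher and 3 lower of 8, with Clu at 4.08 ± 0.46, and membrane regulators 1 higher and 2 lower of 9, with Thbd, thrombomodulin, at 2.10 ± 0.36. Receptors gave 3 higher and 0 lower of 7, including Itgam, the alpha chain of complement receptor 3, at 3.50 ± 0.66, and C5ar1, the receptor for C5a, at 2.33 ± 0.78 (log2 fold change ± SE, adjusted p from 0.000244 to 0.0436 by edgeR). C5ar1 lost its call without baseline replicate 1 or 3 or IR replicate 1 or 2 labelled Tet2-/-, with adjusted p from 0.0606 to 0.142 by edgeR.

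**Figure D4:**
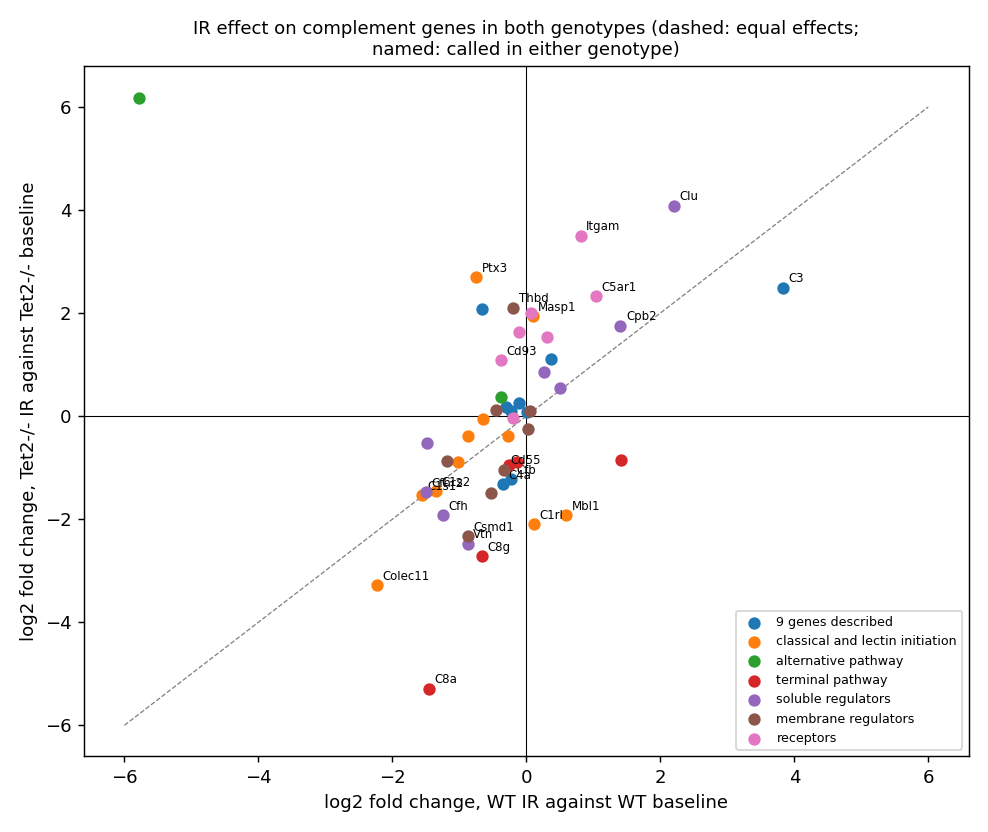
Each point is a complement gene tested in both genotypes, with its log2 fold change after IR in WT kidneys on the horizontal axis and in those labelled Tet2-/- on the vertical axis, coloured by role, and the dashed line marks equal effects. C3 lies below the line at 3.83 and 2.49, C8a lies far below it at -1.45 and -5.29, and names are given to the genes called in either genotype.

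At baseline 0 of 42 other complement genes were called between genotypes in either direction, with 4 at an unadjusted p under 0.05 in edgeR's test, against 11.8% of all genes tested, while DESeq2 also called 0. After IR 38 were tested, and 1 was called higher and 5 lower in the libraries labelled Tet2-/-, where 2.3% and 3.85% of all genes were, with a median log2 fold change of 0.06 (all genes 0.04). C8a was 10.9, 4.04 and 3.44 FPKM in the WT IR libraries and 0.963, 0.386 and 0.261 FPKM in those labelled Tet2-/-, and C8g was 13.1, 5.41 and 8.28 against 2.95, 2.18 and 2.44 FPKM. Neither gene overlapped between these groups, with log2 fold changes of -3.59 ± 0.64 and -1.92 ± 0.36 (SE, adjusted p = 0.0218 and 0.0255 by edgeR). Mbl1, at 4.21 to 6.66 against 0.531 to 1.34 FPKM, and C1rl, at 8.05 to 13.3 against 1.84 to 2.76 FPKM, gave -2.56 ± 0.38 and -2.15 ± 0.24 (SE, adjusted p = 0.0153 and 0.0103 by edgeR). Itgam was higher, at 2.25, 3.23 and 0.556 FPKM against 0.323, 0.321 and 0.112 (log2 fold change 2.89 ± 0.65 SE, adjusted p = 0.0391 by edgeR). The fifth lower gene, Cpn2, which encodes the regulatory subunit of carboxypeptidase N, had a mean under 1 FPKM in both groups and is named after its values were seen.

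These calls after IR depended on single libraries to different degrees. Without WT IR replicate 1 the calls over all genes also fell, from 373 higher and 623 lower to 65 and 229. With a library left out the log2 fold changes kept their sign, from -4.33 to -2.91 for C8a and -2.83 to -2.31 for Mbl1. They were -2.20 to -1.57 for C8g and 2.44 to 3.31 for Itgam. C1rl was called in all 17 alternatives. The call of Mbl1 ended without WT IR replicate 1 or IR replicate 1 labelled Tet2-/- (adjusted p = 0.0507 and 0.0532 by edgeR), and that of C8a without WT IR replicate 1 or IR replicates 2 or 3 labelled Tet2-/- (at most 0.0632). The call of C8g ended without any IR library but WT replicate 2 (at most 0.0774), and that of Itgam without any but replicate 3 labelled Tet2-/- (at most 0.109). For the interaction 1 of 44 was called with a larger and 4 with a smaller log2 change in the libraries labelled Tet2-/-, where 3.79% and 5.39% of all genes were, so these counts are near the share over all genes. With the replicate number as a block the first count was 4, where calls with a larger log2 change over all genes went from 634 to 1024.

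**Figure D5:**
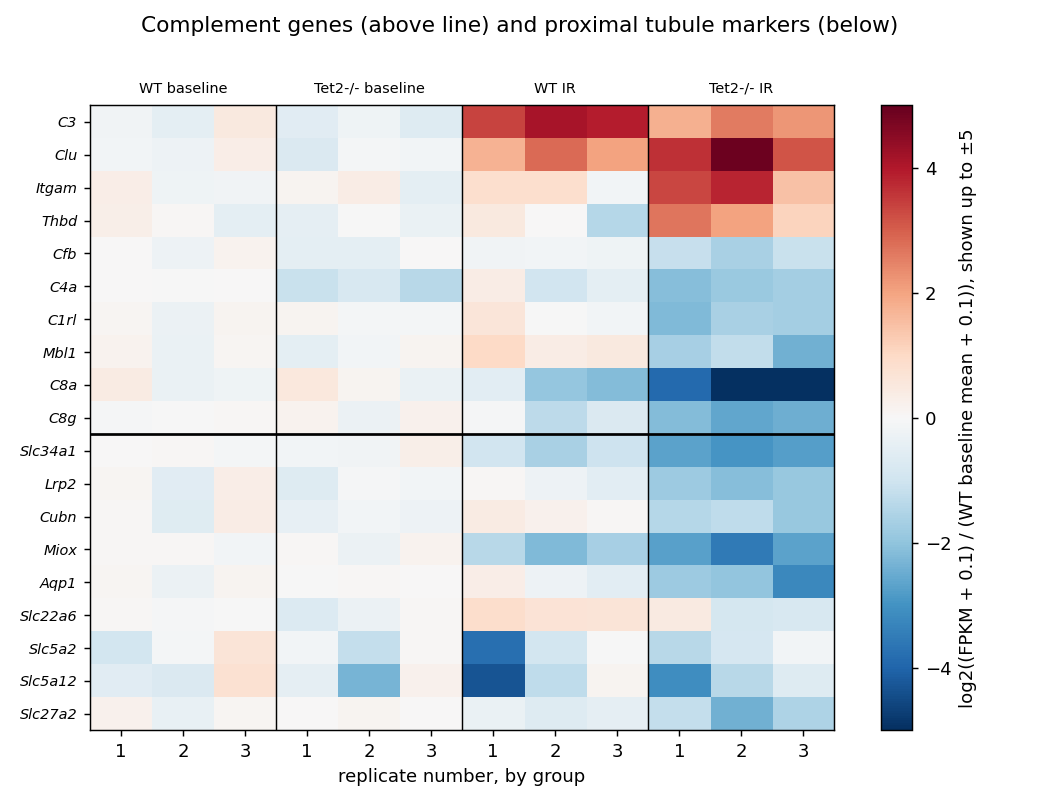
Colour gives log2 of FPKM + 0.1 over the WT baseline mean + 0.1 in each of the 12 libraries, by group and replicate number, for 10 complement genes above the line and 9 proximal tubule markers below it. C3 and Clu are raised in all 6 IR libraries, while Cfb, C4a, C1rl, Mbl1, C8a, C8g and 6 of the 9 proximal tubule markers are lowest in the IR libraries labelled Tet2-/-.

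Of 9 markers of the proximal tubule, 6 had all values in the IR libraries labelled Tet2-/- below those in every other library. Of all genes tested, 17.9% were lower without overlap in these libraries than in their baseline libraries, and 14.6% than in the WT IR libraries. The share against all other libraries at once was not taken. The summed FPKM of the 9 was 4582 to 5314 in the WT baseline libraries, 4707 to 5504 in those labelled Tet2-/- at baseline, 2714 to 3608 in the WT IR libraries and 940.6 to 1644 in the IR libraries labelled Tet2-/-, and none was at 0. Of these markers 1 was called lower after IR in WT kidneys, 6 after IR in those labelled Tet2-/- and 4 between genotypes after IR, where 0.887%, 11.6% and 3.85% of all genes were, with a median log2 fold change of -1.30 in the last comparison, in which Slc5a2 and Slc5a12 gave 0.08 ± 0.82 and -0.61 ± 1.04 (SE). In WT kidneys the sum was lower after IR than at baseline. The marker Slc22a6, named after its values were seen, was 234.3 to 252.7 FPKM at baseline and 376.85 to 439.6 FPKM after IR. In the same kidneys C8a was 12.5 to 21.3 FPKM at baseline and 3.445 to 10.9 FPKM after IR. In the same order C8g was 13.1 to 14.2 and 5.41 to 13.1 FPKM, and C1rl 7.19 to 9.765 and 8.05 to 13.3 FPKM. Mbl1 was 2.60 to 3.67 FPKM at baseline and 4.21 to 6.66 FPKM after IR. The summed FPKM of 6 injured tubule markers was 511.5 to 1512 in the WT IR libraries and 3292 to 4543 in those labelled Tet2-/-, but 0 of the 6 were called between these groups, with 5 at an unadjusted p under 0.05 in edgeR's test, against 28.9% of all genes tested. The part of tubule loss in the levels of Cfb, C4a and C3 was not tested.

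Liver cells are the main source of plasma complement. Of 10 hepatocyte markers, several of which the kidney also expresses, Alb, which encodes albumin, was at most 0.919 FPKM, Ahsg at most 0.021 FPKM and Cps1 at most 0.002 FPKM in every library, while Apoc3 reached 195.6 FPKM. Serpina1b was 10.5, 37.1 and 8.28 FPKM in the WT baseline libraries and at most 5.98 FPKM in the others, and Serpina1a reached 3.73 FPKM. The sum of the 10 was 21.8 to 78.9 FPKM in the WT baseline libraries, 28.5 to 55.2 FPKM in those labelled Tet2-/- at baseline, 81.7 to 203.4 FPKM in the WT IR libraries and 22.6 to 95.4 FPKM in those labelled Tet2-/-, led in most libraries by Apoc3, and 1 to 3 markers were at 0 in each library. The part of liver RNA in the complement levels was not tested. Neutrophil markers, 11 in number, summed to 4.06 to 9.49 FPKM in the WT IR libraries and 75.5 to 133.6 FPKM in those labelled Tet2-/-, and 7 of the 8 tested were called higher between them, where 2.3% of all genes were. The filter on low counts kept only 3 of the 11 for IR in WT. Some markers were thus tested only through the libraries in which they were high, so the count of 7 of 8 cannot be set against that share. Itgam and C5ar1 are expressed by neutrophils, and the part of these cells in their levels was not tested.

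Cytokines and transcription factors known to induce complement genes, 12 in number, included 0 called after IR in WT kidneys, with 2 at an unadjusted p under 0.05 in edgeR's test, against 22.7% of all genes tested. In kidneys labelled Tet2-/- 5 of 11 tested were called higher and 0 lower after IR, where 12.7% and 11.6% of all genes were, while 10 had been tested in WT. Between genotypes after IR 2 of 11 tested were called higher (Il6 and Il1b) and 0 lower, where 2.3% and 3.85% of all genes were. Il6, with only 1 to 9 counts in each WT IR library, was 0.013, 0.046 and 0.101 FPKM in the WT IR libraries and 2.36, 1.17 and 0.607 FPKM in those labelled Tet2-/-, and Il1b was 0.468, 0.340 and 0.528 against 2.22, 4.84 and 1.92 FPKM. Neither cytokine overlapped between these groups, and Il6 passed the filter on low counts through the libraries labelled Tet2-/-. The part of either cytokine in the levels of C3 and Cfb was not tested. Stat3, which transmits the signal of interleukin 6, rose by 2.03 ± 0.17 on the log2 scale after IR in kidneys labelled Tet2-/- (SE, adjusted p = 0.000210 by edgeR) and had a log2 fold change of 1.10 ± 0.27 in WT kidneys (SE, adjusted p = 0.0770 by edgeR).

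The genes whose pattern was most like that of each member were found by Pearson's r of log2 CPM over the 12 libraries, among about 12196 genes with a mean of at least 1 FPKM, as a description that includes the groups and the depth of the libraries. C1qa and C1qb were each nearest to C1qc, at r = 0.986, followed among others by Mpeg1 at 0.952 and 0.978 and, for C1qb, Cd52 at 0.977. The nearest genes of C3 were Uxs1 (0.977), LOC100503496 (0.955) and Adss (0.954), and those of Cfb included Fuca1 (0.973) and Osgepl1 (0.973). For C4a they were Gne (0.909), Ftcd (0.906) and Rab23 (0.901), for C2 Rnf185 (0.892), Mcoln1 (0.879) and Gkap1 (0.873), for C4b Pvrl3 (0.887), Ostm1 (0.866) and Rab7 (0.858), and for Cfi D630023F18Rik (0.890), Asb3 (0.857) and Myrf (0.856). Among the members themselves Cfb and C4a had r = 0.806, C4b and Cfi 0.753, C2 and Cfi 0.720, and C3 and Cfb -0.268.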

How the data were processed

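RNA-seq of total RNA from whole kidney was analysed for 12 libraries in 4 groups of 3, grouped by the genotype and treatment labels. The authors used STAR to align reads to mm9 and HOMER to count them per RefSeq transcript, with no versions given in the sources used here. They deposited expected counts, which are not normalized, and a separate matrix of FPKM. The deposited counts rise in steps of 0.5, 38.7% are not whole, and they were rounded before testing. Whole counts had been assumed in the design. Of 34600 transcripts, the one with the highest total stood for each of 24421 symbols, and 5569 symbols had more than 1. Totals were 51007366 to 107969888 counts. Counting error was not separated from the spread between libraries and weighs most on genes of few counts, such as Cfi, with as few as 22.5.

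Each comparison used its own 6 libraries, and the interaction all 12, in edgeR 4.0.16 (TMM, its filter on low counts, quasi-likelihood test, Benjamini-Hochberg adjustment over all genes tested) under R 4.3.3. Tests were tried on simulated data. Alternatives were DESeq2 1.42.0, library sizes alone, no filter, a mean FPKM of at least 1, limma 3.58.1 on log2(FPKM + 1) or log2(FPKM + 0.1), a replicate number block, counts summed over transcripts, all 12 libraries in a single fit, no fold change threshold, unadjusted p and each library left out. Leaving out libraries with adipocyte markers was chosen after seeing the data. The members and lists were chosen with earlier results of these data known. The text names Tet2, all members, other complement genes called with a mean of at least 1 FPKM in either group (at most 8 per comparison, by fold change), the 3 genes most like each member (1 gene is not reported here), and markers beside a result.

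Same-numbered libraries of 1 genotype deviated together from their group means (r = 0.380, 0.363 and 0.358 in WT and 0.135, 0.359 and 0.222 in those labelled Tet2-/-), although no source says that they share a mouse, so the block is given beside IR effects and the interaction. Coordinates are those of the files. Sequences were read from NCBIM37, and 12966 of 20760 symbols that the annotation also names start at an annotated start. The annotation places 4 bases of the Cfb interval and 10 bases of the C4a window inside a transcript. BLAST 2.17.0 compared C4a with C4b, whose reads can be split between both genes, as the counting rule for shared reads is not given. Figures were drawn with matplotlib 3.10.9.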

Additional observations from a re-analysis of the deposited data

Results flagged for a closer look

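The IR effect differed between the genotypes by the test of the interaction in 5 of the 44 tested complement genes that are not among the 9 described and in Tet2 (edgeR, adjusted p under 0.05). Of all 16741 genes tested, 3.79% were called with a larger and 5.39% with a smaller log2 change, so the count of 5 is near the share over all genes. The log2 difference, in libraries labelled Tet2-/- minus WT, was -3.79 for C8a, -2.48 for Mbl1, -2.18 for C1rl, -2.01 for C8g, 2.34 for Thbd and -2.001 for Tet2, with adjusted p of 0.0115, 0.00916, 0.00381, 0.0135, 0.0437 and 0.0285 by edgeR. In each of these genes the IR effect in WT kidneys was not called. Thbd was called again only without WT IR replicate 1 or IR replicate 3 labelled Tet2-/- when single libraries were left out (otherwise adjusted p of 0.0522 to 0.106 by edgeR), and Tet2 lost its call without WT baseline replicate 2 or 3, baseline replicate 2 labelled Tet2-/- or IR replicate 1 labelled Tet2-/- (0.0527 to 0.0584). With counts summed over transcripts Thbd was not called (2.28, adjusted p = 0.0506 by edgeR). Both limma fits also ended the call of Tet2, at -1.43 with an adjusted p of 0.0613 on log2(FPKM + 1) and -1.69 with 0.0517 on log2(FPKM + 0.1). Leaving out the 3 libraries with adipocyte markers left 1 WT baseline library, and of 17182 genes tested 0 were then called higher and 3 lower, so the calls of single genes cannot be read in that setting. The log2 differences there were -3.12 for C8a, -2.11 for Mbl1, -2.24 for C1rl, -2.13 for C8g, 2.90 for Thbd and -1.62 for Tet2. No cause was tested.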

How the results depend on the processing

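The rise of C3 after IR in kidneys labelled Tet2-/- and its lower level in them after IR were called under every alternative run, and the rise in WT kidneys under all but 1: without the libraries with adipocyte markers 0 members were called higher there. That setting left 1 WT baseline library and called 0 of 16526 genes higher and 1 lower for IR in WT, and 0 higher and 3 lower of 17182 for the interaction, so a call lost in it says nothing about stability. The log2 fold change of C3 in it was 3.99, against 3.83 with all libraries. The causes of the changes below were not tested, and settings with fewer libraries or genes tested also differ in that. Members called lower for IR in kidneys labelled Tet2-/-, 2 in the main result, were 1 with library sizes alone or a mean FPKM of at least 1, 0 with limma on log2(FPKM + 1) or log2(FPKM + 0.1), and 1 to 2 with a library left out (1 without baseline replicate 2). Between genotypes at baseline 1 member was called lower by DESeq2 and 2 at an unadjusted p. Over all genes 297 and 544 were called lower in these settings, against 0 in the main result. After IR the 3 called lower were 1 to 3 with a library left out (1 without WT replicate 1 or 3 or replicate 1 labelled Tet2-/-). For the interaction, where 0 were called, 2 were called with a smaller log2 change by DESeq2, a mean FPKM of at least 1 or an unadjusted p, 1 by limma on log2(FPKM + 1), and 0 to 1 with a library left out (1 without WT baseline replicate 3). Over all genes the 902 with a smaller log2 change became 1600 by DESeq2, 1012 at that mean FPKM and 2102 at an unadjusted p. By limma on log2(FPKM + 1) they were 596.

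With the replicate number as a block, members called for the interaction went from 0 to 2 (C3 and Cfb), other complement genes called lower for IR in WT from 0 to 6, and those called higher from 1 to 4 both after IR and for the interaction. Over all genes, calls lower for IR in WT went from 142 to 559 and calls higher after IR from 373 to 477. For the interaction 634 higher and 902 lower became 1024 and 1077. It changed the call of no member elsewhere. Between genotypes, same-numbered libraries share only a number: they had r of -0.186, -0.167 and 0.0709 at baseline and 0.0026, 0.230 and 0.320 after IR.

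Other complement genes called higher for IR in WT, 1 in the main result, were 2 at an unadjusted p, 0 without the adipocyte marker libraries and 0 to 1 with a library left out. Those called lower, 0 in the main result, were 7 by DESeq2, 1 with a mean FPKM of at least 1, with limma on log2(FPKM + 0.1) or with all 12 libraries in a single fit, 9 at an unadjusted p and 0 to 2 with a library left out (2 without WT IR replicate 1). Calls lower over all genes went from 142 to 492 by DESeq2 and to 777 at an unadjusted p, so more were called throughout. For IR in kidneys labelled Tet2-/-, the 8 called higher were 4 by limma on log2(FPKM + 1) and 3 to 11 with a library left out (3, 5 and 4 without baseline replicates 1, 2 and 3 and 5 without IR replicate 1), and the 12 called lower were 7 with a mean FPKM of at least 1, 5 and 7 by limma on log2(FPKM + 1) and log2(FPKM + 0.1), and 7 to 13 with a library left out (7 without baseline replicate 1 or 2). Over all genes 2078 higher and 1896 lower became 1440 and 816 by limma on log2(FPKM + 1). Without baseline replicate 1 they were 1803 and 1636. At baseline 1 was called lower at an unadjusted p. After IR the 1 called higher was 6 by DESeq2, 2 without a filter, 0 by both limma fits, 5 with all 12 libraries in a single fit, 7 at an unadjusted p and 0 to 1 with a library left out, and the 5 called lower were 2 to 5 (2 without WT replicate 1, 3 without replicates 1, 2 or 3 labelled Tet2-/-). Calls higher over all genes went from 373 to 775 by DESeq2, 714 in the single fit and 984 at an unadjusted p. For the interaction the 1 called higher was 5 by DESeq2, 2 with library sizes alone or a mean FPKM of at least 1, 0 with counts summed over transcripts, 7 at an unadjusted p, 0 without the adipocyte marker libraries and 0 to 3 with a library left out, and the 4 called lower were 0 without the adipocyte marker libraries.

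Signs turned only among log2 fold changes that were never called, those of the C1q subunits, C2, C4b and Cfi. For IR in WT, C2 was -0.0001 without a filter, -0.0094 with a mean FPKM of at least 1 and -0.15 without the adipocyte marker libraries, and C4b 1.09 without these. With the block C1qa was -0.027 for IR in kidneys labelled Tet2-/-, and C4b was -0.71 and Cfi 0.21 between genotypes after IR. At baseline C1qb was -0.055 and -0.067 by limma on log2(FPKM + 1) and log2(FPKM + 0.1), and without the adipocyte marker libraries C1qa was -0.25, C1qb -0.30, C1qc -0.25 and Cfi 0.31. After IR C4b was -0.14 and -0.49 and Cfi 0.040 and 0.24 by these limma fits. For the interaction C2 was -0.33, C4b -1.48 and Cfi -1.24 without the adipocyte marker libraries. With a library left out, IR in WT gave -0.86 to 0.16 for C1qa, -0.68 to 0.0045 for C1qb, -0.63 to 0.27 for C1qc, -0.32 to 0.29 for C2, -1.60 to 1.17 for C4b and -0.52 to 1.99 for Cfi. IR in kidneys labelled Tet2-/- gave -0.55 to 0.53, -0.51 to 0.65, -0.43 to 0.80, -0.47 to 0.58 and -0.39 to 2.58 for C1qa, C1qb, C1qc, C2 and C4b. Genotype at baseline gave -0.22 to 0.51, -0.39 to 0.33, -0.36 to 0.47 and -1.34 to 0.76 for C1qa, C1qb, C1qc and Cfi. Genotype after IR gave -0.12 to 1.18, -0.11 to 0.95, -0.14 to 1.08, -0.80 to 0.075, -2.42 to 1.004 and -0.93 to 0.79 for C1qa, C1qb, C1qc, C2, C4b and Cfi. The interaction gave -0.37 to 0.99, -0.24 to 0.94, -0.37 to 0.91, -0.43 to 0.58 and -0.84 to 1.67 for C1qa, C1qb, C1qc, C2 and Cfi. Depth was no limit for C3, Cfb or C2, whose counts were at least 631.5 in every library, while Cfi had as few as 22.5.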
